A study of Mus musculus with 4 samples.

Results

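The feedback target genes of beta-catenin were read in mouse brown preadipocytes with and without the histone methyltransferase G9a. They were found as the probe sets whose single platform gene symbol is Axin2, Lef1, Tcf7, Nkd1, Nkd2, Lgr5, Znrf3, Rnf43, Tnfrsf19 or Cd44. Of these 10 genes, 9 were represented, by 24 of the 45037 probe sets on the array, and Tcf7 was not analysed here. A probe set is a group of short probes for 1 transcript region. On each array 1 signal per probe set was recorded, in linear units.

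Canonical Wnt signalling keeps beta-catenin from being degraded, and beta-catenin then enters the nucleus and activates genes together with the DNA-binding factors of the TCF/LEF family. Several of the genes it activates feed back on the pathway. Axin2, Nkd1, Nkd2, Znrf3 and Rnf43 dampen the signal, Lef1 and Tcf7 encode TCF/LEF factors themselves, and Lgr5 encodes a receptor for R-spondins, which protect Wnt receptors. Wnt signalling of this kind is known to hold preadipocytes back from becoming fat cells.

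The cells were immortalized brown preadipocytes of mixed C57/BL6-129 background whose G9a (Ehmt2) alleles were floxed, written G9af/f in the labels, in every group. Vector cells, labelled wild type, and Cre cells, labelled G9a knock out, were each measured on 2 arrays, numbered 1 and 2. All cells were cultured in DMEM with serum and total RNA was used. The labels name neither the deleted exons nor the vehicle that carried Cre, and do not tell what the numbers 1 and 2 stand for or whether a line is a single clone. Xist, the RNA of the inactive X chromosome, read 11049 and 9810 on the vector and Cre arrays of number 1 and 41.8 and 58.0 on those of number 2 (probe set 1436936_s_at), so the arrays of a group were not repeat readings of 1 RNA sample. The p-values measure the spread between these arrays.

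Ehmt2 itself was lower on both Cre arrays. Its signal was 2682 and 2688 in vector cells 1 and 2 and 953 and 912 in Cre cells 1 and 2, which is -1.49 ± 0.20 (SE, n = 2 against 2) in log2 terms, with a limma adjusted p of 0.227. It fell in the fit that has the replicate number as a block (limma adjusted p = 0.000281). All 9 preadipocyte and mesenchymal markers on the array passed the level filter, and 0 of 6 markers of mature brown fat did. The 2 arrays of replicate number 1 and the 2 of number 2 also differed in many transcripts, which is why values are given within each number. In bulk RNA, fewer cells of a type and less RNA per cell cannot be told apart.

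The promoters of the 4 genes on which the results below turn are shown first, as the 250 bases before a transcription start site in RefSeq annotation (GRCm38.p6), read 5′ to 3′ on the gene's strand. They were searched on both strands for the TCF/LEF core, spelled CTTTGAA, or the same first bases ending in AT, TA or TT, and matches are in capitals. For Lef1, which has 4 start sites in the table, the start site inside the gene with a match is shown.
Lef1 (chr3:131156044-131156293, + strand): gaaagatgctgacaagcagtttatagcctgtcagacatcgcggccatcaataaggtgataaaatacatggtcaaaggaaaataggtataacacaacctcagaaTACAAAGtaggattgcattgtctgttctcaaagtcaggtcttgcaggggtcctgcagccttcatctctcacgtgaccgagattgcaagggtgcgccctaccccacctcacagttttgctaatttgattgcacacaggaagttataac
Nkd2 (chr13:73847632-73847881, - strand): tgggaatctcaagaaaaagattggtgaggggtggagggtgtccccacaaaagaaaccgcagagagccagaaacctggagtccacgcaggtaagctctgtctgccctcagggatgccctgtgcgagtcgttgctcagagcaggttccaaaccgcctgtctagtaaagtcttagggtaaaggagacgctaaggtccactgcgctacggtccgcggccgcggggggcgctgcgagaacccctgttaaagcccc
Cd44 (chr2:102901666-102901915, - strand): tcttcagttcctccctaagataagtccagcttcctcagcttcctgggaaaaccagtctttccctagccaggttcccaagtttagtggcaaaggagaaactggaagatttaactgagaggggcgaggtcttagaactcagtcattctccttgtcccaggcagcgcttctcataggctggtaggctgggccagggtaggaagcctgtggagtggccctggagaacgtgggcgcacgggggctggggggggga
Axin2 (chr11:108920099-108920348, + strand): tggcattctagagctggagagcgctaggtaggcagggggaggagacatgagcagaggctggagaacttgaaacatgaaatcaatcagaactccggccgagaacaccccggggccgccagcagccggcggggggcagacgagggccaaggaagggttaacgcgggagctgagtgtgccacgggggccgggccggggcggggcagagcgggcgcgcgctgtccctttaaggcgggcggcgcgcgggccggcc
The match in the Lef1 window lay at positions -147 to -141 from the start, on the reverse strand, where -1 is the last base before the start. No other of the 4 windows held a match. Of the 14 start sites of 8 genes in the table, 2 held 1, the second being a start site of Tnfrsf19. Among all 32851 start sites 14.8% did. The absence of these letters in 250 bases gives no information on binding of a TCF/LEF factor, and distal elements were not searched. The windows shown differed in base composition. G and C made up 69.2% of the Axin2 window, with 24 CpG dinucleotides, and 44.8% of the Lef1 window, with 5. The other Lef1 windows held no match. G and C made up 66.4%, 66.4% and 50.8% of them, with 11, 14 and 6 CpG dinucleotides.

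A level filter kept 22519 probe sets for testing, those whose mean log2(signal + 16) over all arrays was at or above the median. It kept 9 of the 24 member probe sets, from Lef1, Nkd1, Nkd2, Znrf3 and Cd44. Every probe set of Axin2, Lgr5, Rnf43 and Tnfrsf19 lay below it. Log2 differences given here are on the log2(signal + 16) scale after quantile normalization, Cre minus vector, and understate changes of dim probe sets.

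No member probe set passed the adjusted threshold of 0.05 in limma without the replicate number in the model: 0 of 9 tested, against 0.00888% of all tested probe sets, with 1 of the 9 at an unadjusted p under 0.05. With the replicate number as a block, 1 of 9 fell and 0 rose, against 0.853% and 2.29% of all tested probe sets (3.14% in either direction). The 1 that fell was a probe set of Cd44. After normalization, 3 of the 9 tested probe sets did not overlap between the groups, all with Cre lower. They belonged to Lef1 and Cd44. Of all tested probe sets 15.8% did not overlap with Cre lower, and 30% in either direction. Within both replicate numbers alike, 6 of the 9 were lower in Cre cells and 3 were higher. Those shares were 33.2% and 27.9% over all tested probe sets. The higher ones were all of Nkd2, and the lower ones included every tested Cd44 probe set. Of the Nkd2 probe sets, 1419466_at had a mean level above the filter in Cre cells only. Probe sets of 1 gene are not independent readings. By the brightest probe set of each of the 9 genes, tested or not, 5 were lower, 2 higher and 2 of opposite signs. The median log2 difference over the 9 brightest probe sets per gene, tested or not, was -0.08, and that of all tested probe sets was -0.02.

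**Figure D1:**
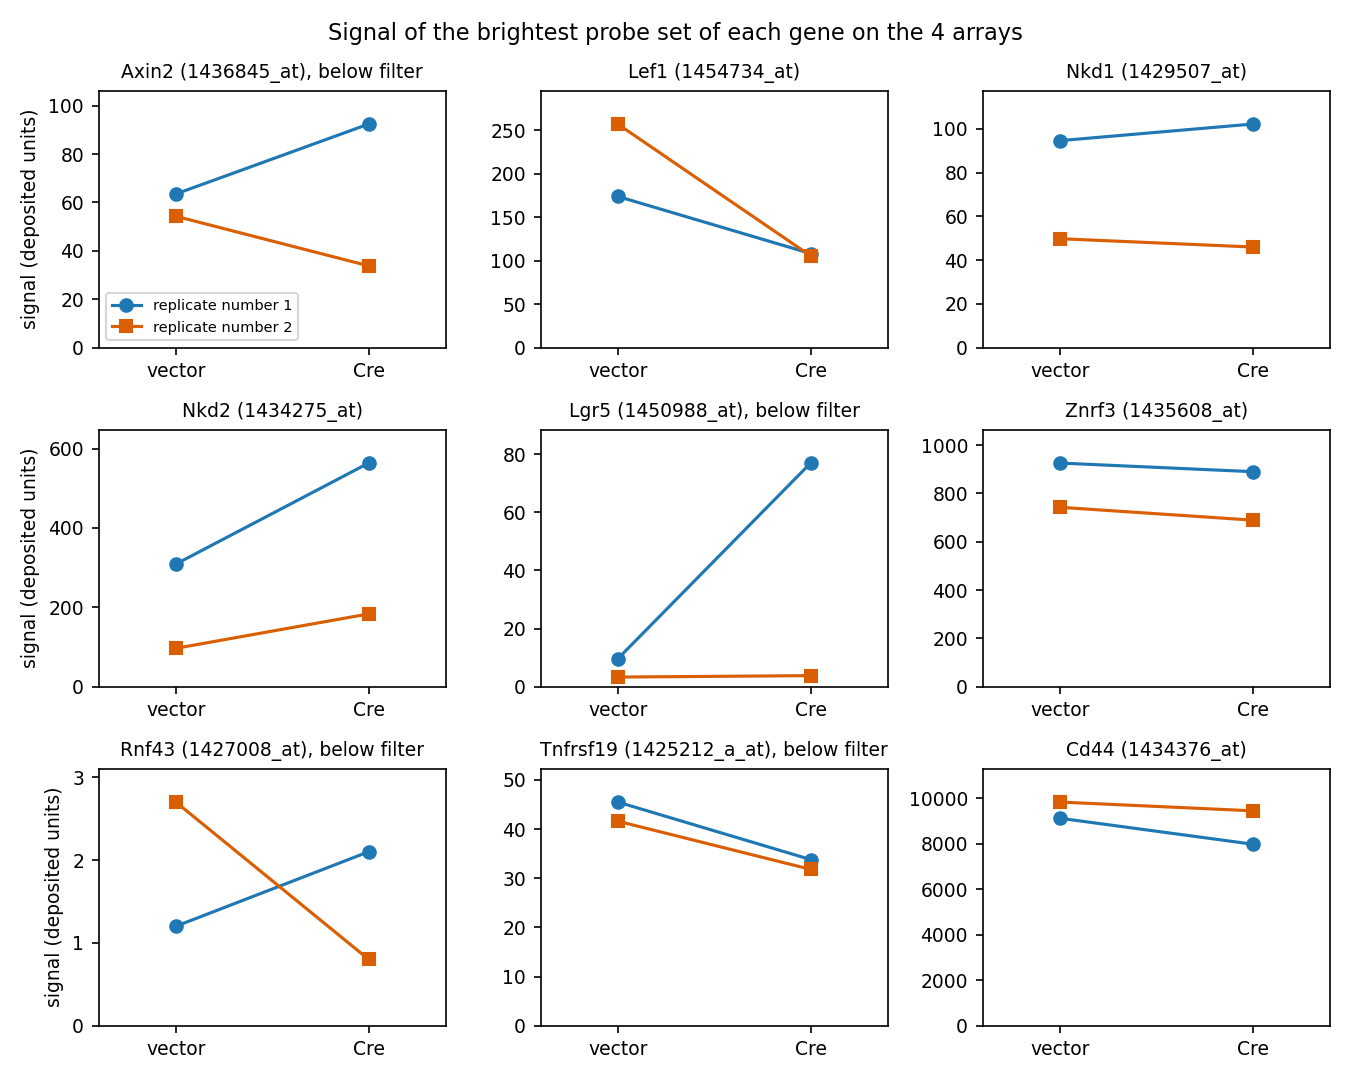
Deposited signal (vertical axis, linear units from 0) of the brightest probe set of each of the 9 genes in vector and Cre cells, with a line for each replicate number. Lef1 was lower on both Cre arrays, Nkd2 was higher in Cre cells within each number but differed more between the numbers, and the 2 lines of Axin2, Nkd1 and Rnf43 ran in opposite directions.

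Lef1, a TCF/LEF factor whose own gene is a target of the pathway, was the member with the largest negative difference among those tested. Its brightest probe set (1454734_at) read 174 in vector cells 1 and 257 in vector cells 2, and 108 and 106 in Cre cells 1 and 2. Both Cre arrays lay below both vector arrays, and the 2 Cre arrays were close to each other. Lef1 was 1.93-fold lower in Cre cells, or by -0.95 ± 0.34 on the log2 scale (SE, n = 2 against 2; 95% interval -1.78 to -0.11; limma adjusted p = 0.999). Within numbers 1 and 2 the differences were -0.74 and -1.15. With the replicate number as a block the SE was 0.24 and the limma adjusted p was 0.0600, just short of the threshold. That p was 0.0414 when log2 values were centred on array medians instead of quantile normalized, and 0.283 without the level filter. The call there thus depends on the scaling and on the filter. The second Lef1 probe set (1421299_a_at), below the filter, read 70.7 and 55.4 in vector cells and 35.9 and 35.5 in Cre cells. It too was lower on both Cre arrays, with differences of -0.91 and -0.52 within numbers 1 and 2. Lymphocytes also express Lef1. Of 7 lymphocyte markers on the array 1 passed the level filter, Cd8a, and their summed signal was 217 and 137 in vector cells and 334 and 131 in Cre cells. Their part in the Lef1 difference was not tested.

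Nkd2, one of the naked cuticle proteins that bind Dishevelled and restrain Wnt signalling, was higher in Cre cells within each replicate number on its 3 tested probe sets. The brightest (1434275_at) read 309 in vector and 563 in Cre cells of number 1, and 96.6 and 183 in those of number 2. In order, the levels ran from Cre 1 through vector 1 and Cre 2 to vector 2, so the groups overlapped and both arrays of number 1 lay above both of number 2. Its log2 difference came to 0.80 ± 0.58 (SE, with n = 2 against 2; 95% interval -0.61 to 2.21; limma adjusted p = 0.999), or 1.74-fold. Within numbers 1 and 2 it was 0.87 and 0.74, and number 2 minus number 1 was -1.24 in vector and -1.38 in Cre cells. With the block the SE was 0.20, the 95% interval ran from 0.36 to 1.25, and the limma adjusted p was 0.0627. It was 0.0346 with the scaling as deposited and 0.250 without the level filter.

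The 2 other tested Nkd2 probe sets gave the same order with a weaker second pair. For 1419465_at the signal was 186 and 64.5 in vector cells 1 and 2 and 385 and 94.8 in Cre cells 1 and 2, with differences of 0.98 and 0.38 within the numbers. For 1419466_at it was 83 and 20.6 against 202 and 27.1, with differences of 1.08 and 0.22. Its mean log2 level was 5.95 in vector and 6.61 in Cre cells. The level filter lay at 6.26, so the probe set passed with only its Cre mean above it. By array, number 1 lay above the filter (6.53 in vector and 7.61 in Cre cells) and number 2 below it (5.38 and 5.60). The limma adjusted p-values of these 2 probe sets with the block were 0.191 and 0.359, so neither passed. Without Cre 1, which leaves the numbers unbalanced, their differences were -0.12 and -0.36 in place of 0.68 and 0.65. The last probe set (1457600_x_at), of a type that can also bind other transcripts, lay below the filter. It differed from the others in direction, reading 50.3 and 38.1 in vector cells and 60.1 and 26.4 in Cre cells, with differences of -0.01 and -0.40 after normalization.

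Nkd1, the paralogue of Nkd2, did not show that pattern on its brightest probe set (1429507_at), the only one tested. It read 94.6 and 49.8 in vector cells and 102 and 46.0 in Cre cells. Its log2 difference came to -0.08 ± 0.34 (SE, with n = 2 against 2; 95% interval -0.90 to 0.73; limma adjusted p = 0.999), an interval that covers both signs. Its sign turned with the scaling as deposited, to 0.00503. It also turned without vector 1 or Cre 2, which leaves the numbers unbalanced, to 0.12 and 0.17. A dim probe set, 1417278_a_at, read 6.1 and 5.1 in vector cells and 29.7 and 32.8 in Cre cells, and after normalization it was the only 1 of the 24 probe sets whose Cre arrays both lay above both vector arrays. Its difference was 1.06, and without any level filter its limma adjusted p was 0.850, or 0.269 with the block. Of the 24 probe sets, 10 had both Cre arrays below both vector arrays. Among all tested probe sets these shares were 14.2% with Cre higher and 15.8% with Cre lower. The dim probe set 1429506_at read 4.3 and 22.3 against 27.0 and 24.2, so it too was higher in Cre cells within each number, by 0.84 and 0.04, and its groups did not overlap as deposited but did after normalization. In contrast, 1440446_at read 42.2 and 35.1 against 46.8 and 8.1 and was lower after normalization within both numbers, by -0.10 and -1.21. The probe sets of Nkd1 thus gave no single direction.

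**Figure D2:**
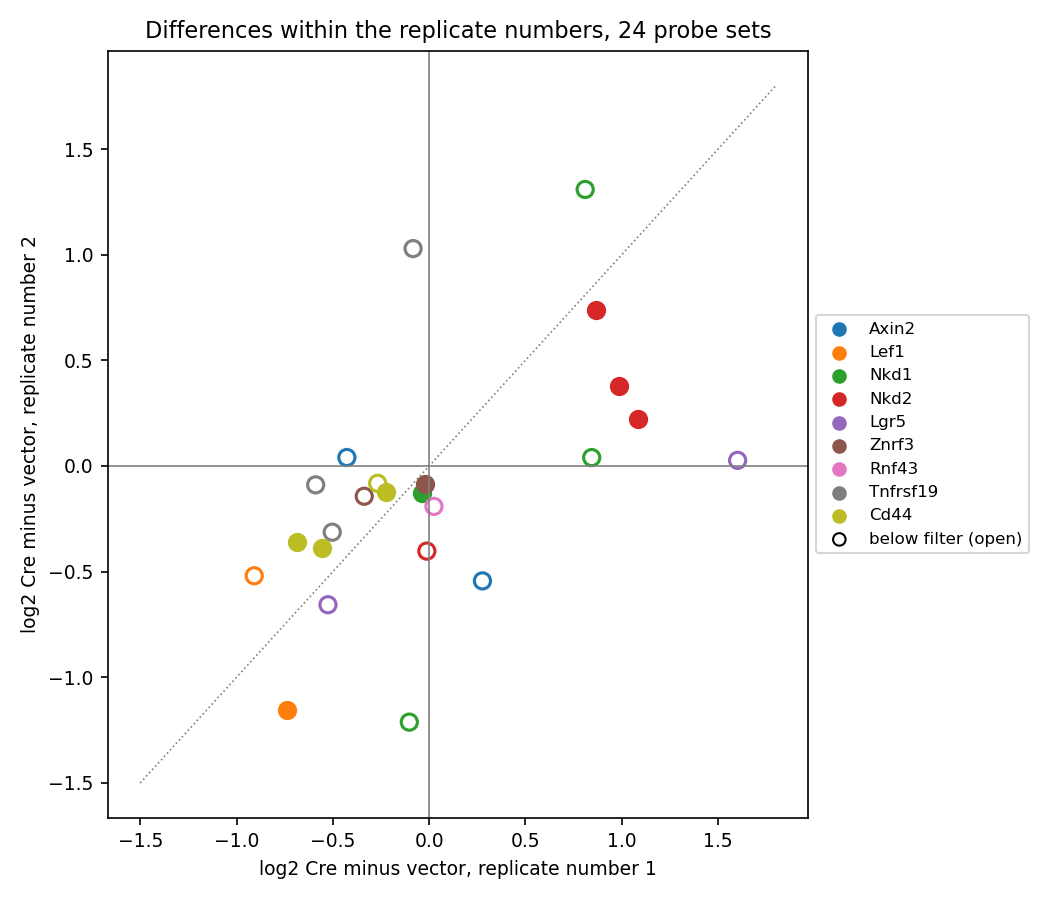
Log2 Cre minus vector within replicate number 1 (horizontal axis) and within number 2 (vertical axis) for the 24 probe sets, filled where tested and open where below the level filter, with equal differences on the dotted line. The Lef1 and tested Cd44 points lie below 0 on both axes, the 3 tested Nkd2 points lie above 0 on both, and 4 of the 24 points have opposite signs.

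Cd44, the hyaluronan receptor of the cell surface, read high on all 4 arrays and was slightly dimmer in Cre cells. Its probe set 1423760_at read 5195 and 7107 in vector cells 1 and 2 and 3259.8 and 5572 in Cre cells 1 and 2. Within each number the Cre array was the lower. Vector 1 lay below Cre 2 as deposited, and the groups did not overlap after normalization. Its log2 difference came to -0.52 ± 0.25 (SE, with n = 2 against 2; 95% interval -1.14 to 0.09; limma adjusted p = 0.999), or 1.44-fold lower, with -0.68 and -0.36 within numbers 1 and 2. With the block Cd44 fell on this probe set (SE 0.11; limma adjusted p = 0.0321). That call was lost without the level filter (limma adjusted p = 0.216), with the filter at the 75th percentile (0.0630) and without the intensity trend (0.306).

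The other bright Cd44 probe sets had the same sign in both numbers and did not pass. The brightest, 1434376_at, read 9119.8 and 9831 in vector cells and 7979 and 9446 in Cre cells, with differences of -0.22 and -0.12, and overlapped between the groups only as deposited. For 1452483_a_at the signal was 1063 and 2192 against 715 and 1642, with differences of -0.55 and -0.39, and number 2 lay above number 1 by 1.05 in vector and 1.22 in Cre cells. Without vector 2 or Cre 1, which leaves the numbers unbalanced, the difference of 1452483_a_at was 0.06 and 0.14 in place of -0.47. Their limma adjusted p-values with the block were 0.355 and 0.148. A dim further probe set, 1443265_at, read between 1.1 and 4.2. Leukocytes carry Cd44 as well. Of 8 macrophage and leukocyte markers 3 passed the filter (Cd14, Cd68 and Csf1r), their summed signal was 848 and 816 in vector cells and 1062 and 798 in Cre cells, and Ptprc, which marks leukocytes in general, read between 2.9 and 11.9. Their part in the Cd44 reading was not tested.

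Axin2, a scaffold of the complex that degrades beta-catenin and the most widely used readout of canonical Wnt activity, gave no consistent difference. Its brighter probe set (1436845_at) read 63.5 and 54.3 in vector cells and 92.4 and 33.8 in Cre cells. The Cre arrays were thus the highest and the lowest of the 4. The differences were 0.28 within number 1 and -0.54 within number 2, and -0.13 over all 4 arrays, or 0.21 without Cre 2. Fitted without the level filter, that value had an SE of 0.38 and a 95% interval of -1.08 to 0.81 (limma adjusted p = 0.999). The other probe set (1421341_at) read 16.7 and 2.8 in vector cells and 10.4 and 3.4 in Cre cells. The interval covers a lower and a higher level of Axin2 alike.

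Among tested probe sets of other genes, those nearest to Axin2 across the 4 arrays were Smr2, Tmem131l and Wdr44. Nearness was the Euclidean distance between log2 values, each minus its own mean, and came to 0.03, 0.05 and 0.06 over 4 arrays. With so few arrays and so dim a probe set this is a description only.

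Znrf3 and Rnf43 encode the membrane ubiquitin ligases that remove Frizzled receptors from the cell surface. The brighter Znrf3 probe set (1435608_at) read 926 and 742.5 in vector cells and 889.9 and 689 in Cre cells. These values lay close together within each number, and differed by -0.05 ± 0.25 on the log2 scale (SE, n = 2 against 2; 95% interval -0.66 to 0.56; limma adjusted p = 0.999). The block narrowed that interval to -0.42 to 0.31. Without vector 1 or Cre 2, which leaves the numbers unbalanced, the difference was 0.07 and 0.10. The dim Znrf3 probe set (1437646_at) read 33.1 and 54.2 against 28.2 and 49.5, also lower in Cre cells within each number. The single Rnf43 probe set (1427008_at) read between 0.8 and 2.7 on all arrays, so no level of Rnf43 could be compared.

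Lgr5, the R-spondin receptor known as a stem cell marker in epithelia, and Tnfrsf19, a receptor of the TNF family that is a Wnt target in mesenchymal cells, were dim. Lgr5 probe set 1450988_at read 9.6 and 3.3 in vector cells and 77 and 3.8 in Cre cells, so its difference of 0.81 rested on array Cre 1: it was 1.60 within number 1, 0.03 within number 2 and -0.13 without that array. The other Lgr5 probe set (1444519_at) had the opposite sign, with 21.9 and 15.8 against 12.9 and 5.6. Array Cre 1 also had the highest summed signal of 7 epithelial markers, 1121 against 426 in vector cells 1, 460 in vector cells 2 and 544 in Cre cells 2, and the highest of 6 endothelial markers, 338 against 148, 82 and 158, none of which passed the filter. Krt18 was higher on both Cre arrays, with 93.6 and 125 in vector cells against 527 and 244 in Cre cells (1.58; limma adjusted p = 0.684), and it rose with the block (limma adjusted p = 0.0213), a call lost without the level filter (0.228). Of the other epithelial markers within number 2, Krt8, Cldn4, Epcam and Cdh1 were lower in Cre cells, by -1.28, -0.49, -0.05 and -0.02. Krt5 and Krt14 were higher there, by 0.46 and 0.51. The part of the epithelial and endothelial markers in the Lgr5 reading was not tested. For Tnfrsf19, probe set 1425212_a_at read 45.5 and 41.6 in vector cells and 33.8 and 31.8 in Cre cells, lower on both Cre arrays. Probe set 1448147_at was lower within each number as well (15.9 and 4.9 against 6.4 and 4.0), while 1415921_a_at read 29.9 and 4.1 against 34.3 and 22.6. Without the level filter, 0 of the 15 dim member probe sets passed in limma, in either model, against 0% and 0.187% of all 45037 probe sets. Their smallest limma adjusted p was 0.850, and 0.269 with the block.

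**Figure D3:**
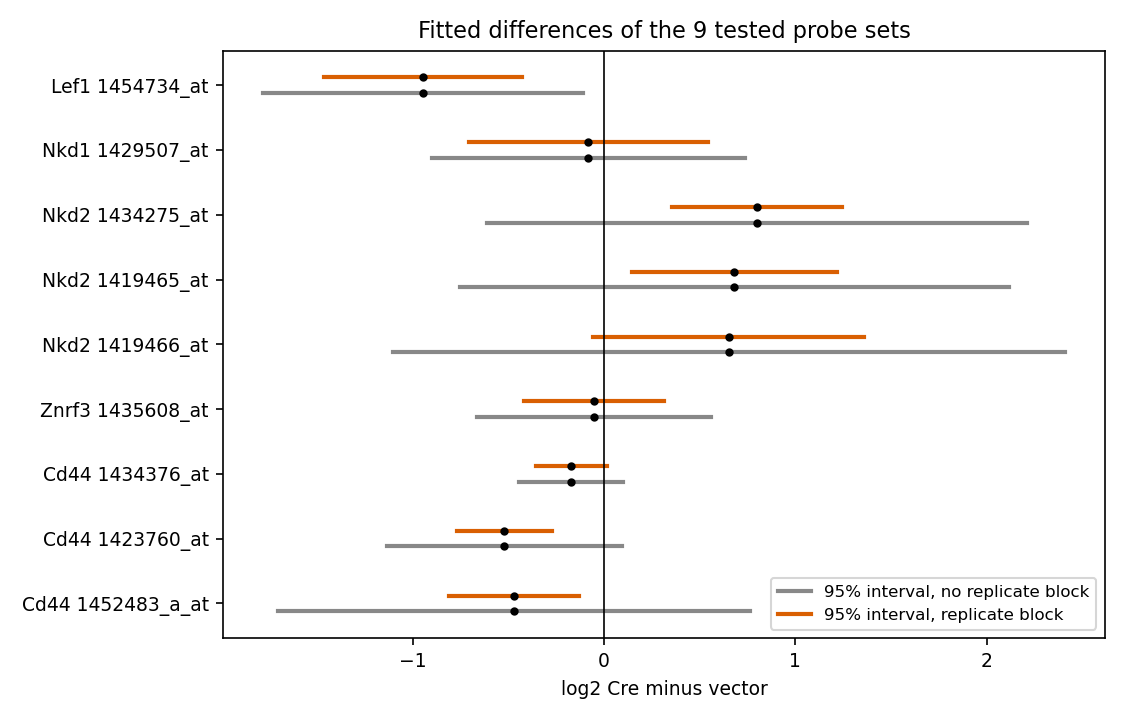
Fitted log2 Cre minus vector (horizontal axis, points) of the 9 tested probe sets with 95% intervals from limma, grey without and orange with the replicate number as a block. The block leaves the points in place and each of the 9 intervals is narrower with it.

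The replicate numbers parted 6 of the 9 tested member probe sets without overlap, where 53% of all tested probe sets were parted so, against the 3 parted by genotype. Nkd2 lay lower in number 2 on all 3 tested probe sets: number 2 minus number 1 ran from -1.24 to -0.99 on the log2 scale in vector cells and from -2.01 to -1.38 in Cre cells. The same difference was -0.41 and -0.50 for Nkd1 (1429507_at) and -0.24 and -0.31 for Znrf3 (1435608_at). Cd44 (1452483_a_at) had the opposite order. The labels do not say what the numbers stand for, and with 1 array per group and number these values are descriptions.

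**Figure D4:**
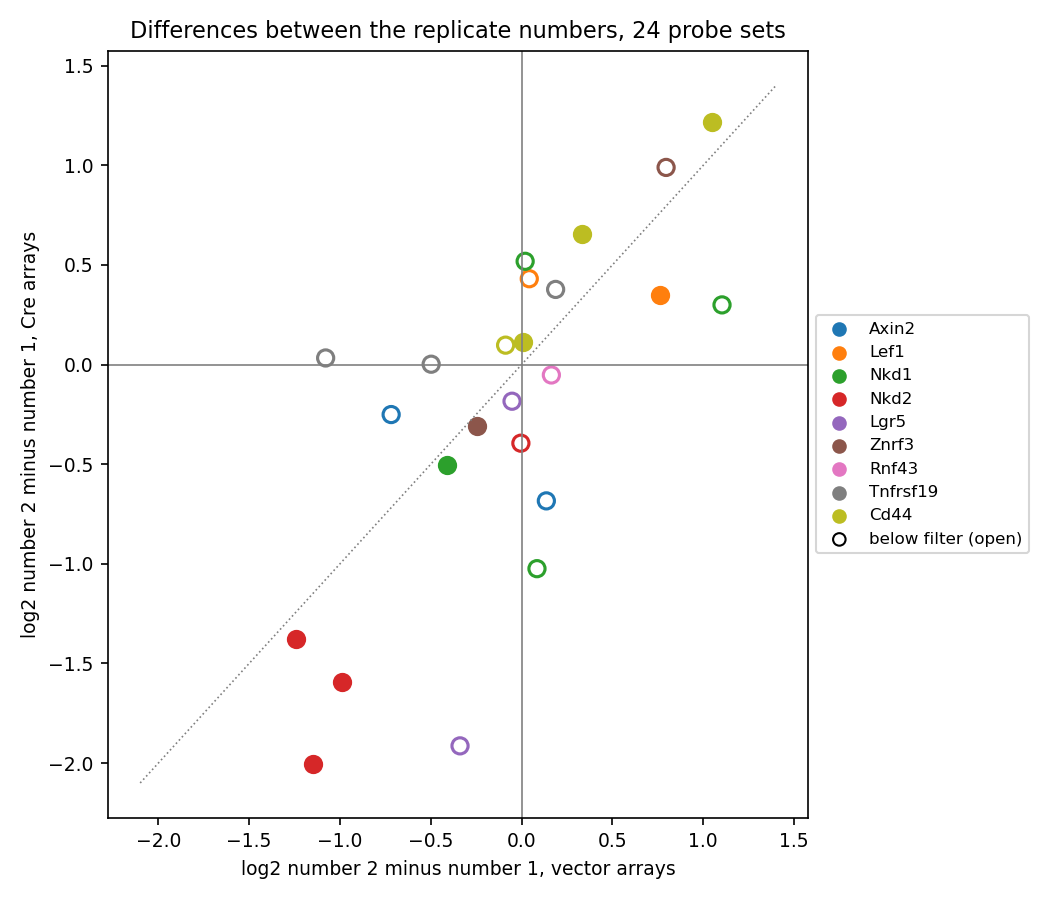
Log2 number 2 minus number 1 among vector arrays (horizontal axis) and among Cre arrays (vertical axis) for the 24 probe sets, filled where tested and open where below the filter. The 3 tested Nkd2 points lie at the lower left, at or below -0.99 on both axes, and Cd44 probe set 1452483_a_at lies at the upper right.

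Genes of the same pathway that are no members were read from lists, each gene by its brightest probe set. Without the block 0 genes of any list passed in limma, against 0% of the 11079 tested genes, with from 0 to 4 genes per list at an unadjusted p under 0.05. With the block, 3.25% of all tested genes rose and 0.984% fell, and the median log2 difference of all tested genes was 0.00727. Among 19 tested other targets of beta-catenin, 4 rose and 3 fell with the block, and their median difference was -0.11. Those that rose were Jag1, a Notch ligand, with 1324 and 805 in vector cells against 2588 and 2634 in Cre cells (1.34 ± 0.28 SE without and ± 0.17 with the block; limma adjusted p = 0.486 and 0.00187), Ccn5 (1.46; 0.00511 with the block), Ccn4 (0.52; 0.0162) and Msx2 (0.92; 0.0426). Those that fell were Sox9, a transcription factor of skeletal progenitors, with 287.5 and 250.5 against 135 and 99.5 (-1.16; limma adjusted p = 0.486, and 0.0159 with the block), Vcan (-0.75; 0.0192) and Fst (-0.96; 0.0330). Without the level filter none of these 7 passed with the block, with limma adjusted p-values from 0.0557 for Jag1 to 0.224 for Msx2. Msx2, Vcan and Fst were named after their values were seen. The targets in common use as readouts, Ccnd1 and Myc, also named afterwards, differed by -0.45 and -0.46 and did not pass (limma adjusted p = 0.0827 and 0.149 with the block).

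Upstream of the targets, the ligands included 1 that fell. Of 6 tested Wnt ligand genes 1 fell and 0 rose with the block, and 4 of the 6 had positive differences, with a median of 0.32. The 1 that fell was Wnt10a, a canonical ligand, at 269 and 124 in vector cells against 56.0 and 30.0 in Cre cells (-1.89 ± 0.35 SE; limma adjusted p = 0.409, and 0.00405 with the block), and that call was lost without the level filter (limma adjusted p = 0.119). The mean log2 level of Wnt10a was 7.69 in vector cells and 5.80 in Cre cells, the latter below the level filter of 6.26. In the intracellular core of the pathway 0 of 13 tested genes passed in either model, and the median was -0.04. Ctnnb1, the gene of beta-catenin itself, named after its values were seen, read 9159 and 7984 in vector cells and 11157 and 8472 in Cre cells (0.15; limma adjusted p = 0.999, and 0.454 with the block). Its transcript level says nothing of the protein, which the pathway controls by degradation. The core gene with the smallest p was Dvl2, a Dishevelled gene (-0.55 ± 0.27 SE; limma adjusted p = 0.999, and 0.160 with the block).

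Among TCF/LEF partners and co-repressors 0 of 13 tested genes passed in either model, and the median was -0.02. Tle5, a short member of the Groucho family of co-repressors, had the smallest p (0.49 ± 0.20 SE; limma adjusted p = 0.999, and 0.0666 with the block). The other TCF genes of the array, Tcf7l1 and Tcf7l2, named after their values were seen, differed by 0.03 and -0.19, against the -0.95 of Lef1. Among 18 tested receptors, R-spondins and secreted antagonists 0 passed in either model, and the median was -0.17. Rspo2, which encodes an R-spondin, had the smallest p (-0.85 ± 0.31 SE; limma adjusted p = 0.999, and 0.129 with the block), with 175 and 89.3 in vector cells against 87.3 and 51.6 in Cre cells.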

How the data were processed

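Total RNA of 4 samples, 2 vector and 2 Cre, was hybridized to Affymetrix mouse arrays. The authors deposited 1 signal intensity per probe set and array, made with MAS5 per the submitters' processing notes, whose version is not given in the sources used here. The deposited means, after trimming 2% from each end, were 500 on every array, while array medians ran from 50.6 to 78 units. Intensities were quantile normalized because medians differed by 0.50 (log2), above a limit of 0.2, and then taken as log2(signal + 16). The table held 45101 probe sets, of which 64 controls were left out. In the platform annotation 34945 carried 1 symbol, 932 several and 9160 none. Differences were fitted in limma 3.58.1 under R 4.3.3 (lmFit, then eBayes with a trend on intensity), on the 22519 probe sets at or above the 50th percentile of mean level, with Benjamini-Hochberg adjustment over all of them and a threshold of 0.05. With 2 arrays against 2 the smallest two-sided p of an exact permutation test is 0.333, so the number of arrays limits the precision. The fits were also run on data simulated from the block model itself. Such data check the code and do not show how the fits perform on these arrays.

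Replicate numbers were taken to pair arrays, because sex-linked transcripts parted the numbers (Xist, above) and deviations from the group means correlated at 0.603 between arrays of the same number. The fit without the block is the main one, and its SEs and intervals also take in the difference between the replicate numbers. It has 2 residual and 4.1 prior degrees of freedom, and the fit with the block has 1 and 9.81.

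Named genes were all members, Ehmt2, up to 4 genes per pathway list that passed in either model or otherwise the 1 with the smallest p, and the 3 nearest to Axin2. The members and lists were chosen with earlier results of these data known. Alternatives were pseudocounts of 1 and 64, the deposited scaling or median centring, no level filter or one at the 75th percentile, robust eBayes or eBayes without trend, each array left out in turn, and the replicate block. The block together with the other settings was added after seeing the data. Promoter sequences are from RefSeq, where 8 of the 10 genes matched; Lgr5 and Znrf3 did not.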

Additional observations from a re-analysis of the deposited data

How the results depend on the processing

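Without the replicate block, 0 member probe sets passed in limma under any of the 13 alternatives but the block itself, which gave 1. Over all tested probe sets the count of 2 became 1 with a pseudocount of 1 and with the filter at the 75th percentile, 0 without the filter and without the trend, 16 with median centring, 708 with the block, and 5 to 29 when 1 array was left out. The median over the 9 genes, -0.08, was -0.17 with a pseudocount of 1 and ran from -0.21 to 0.10 when 1 array was left out, which unbalances the replicate numbers. Lef1 kept its sign without each array in turn, from -1.34 to -0.55 (1454734_at), as did Nkd2 1434275_at, from 0.12 to 1.47, and Cd44 1423760_at, from -0.84 to -0.19. Signs turned with 1 array left out for Axin2 1436845_at (-0.48 to 0.21), Nkd1 1429507_at (-0.34 to 0.17, and 0.00503 with the deposited scaling), Znrf3 1435608_at (-0.21 to 0.10), Nkd2 1419465_at (-0.12 to 1.46) and 1419466_at (-0.36 to 1.64), and Cd44 1452483_a_at (-1.07 to 0.14), and for dim probe sets of Axin2, Lgr5, Nkd1, Tnfrsf19 and Znrf3. Median centring moved the median of all tested probe sets to -0.11. With the block, the member count of 1 was 0 without the filter, with the 75th percentile filter or without the trend, and 2 with the deposited scaling (Cd44 and Nkd2) or median centring (Cd44 and Lef1). The cause of these changes was not tested. No detection calls were used here, so how far the dim probe sets of Axin2, Lgr5, Rnf43 and Tnfrsf19 lie above background is unknown.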
